A study of Mus musculus with 4 samples.

Results

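The genes described here are the MiT transcription factors Tfeb, Tfe3 and Mitf, and Gpnmb, a gene that these factors are known to drive in several cell types. They were measured in primary smooth muscle cells of the mouse aorta with and without a floxed Atg7 allele. Members were the non-control probes of the scanner files that carry one of the 4 names. The files carry 2 probes named Mitf and 2 named Gpnmb, and list Tfeb and Tfe3 under their older names Tcfeb (1 probe) and Tcfe3 (3 probes), which were matched through RefSeq accessions. This gave 4 genes of 28303 gene names, on 8 of 41174 probes and 17 of 43379 spots. Of the 8 probes, 4 passed the filter on dim signals, and 3 of the 4 genes, Tfe3, Mitf and Gpnmb, were among the 12363 genes tested; Tfeb was not.

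TFEB, TFE3 and MITF are basic helix-loop-helix leucine zipper proteins that bind E-box DNA as homodimers or as heterodimers with one another. When nutrients are plentiful, mTORC1 at the lysosome phosphorylates them and 14-3-3 proteins hold them in the cytosol; on starvation or lysosomal stress they enter the nucleus and switch on genes of lysosomes and autophagy. This control acts on the protein, which these arrays do not measure. GPNMB is a glycosylated membrane protein of melanosomes, endosomes and lysosomes, known from melanocytes, osteoclasts and lipid-laden macrophages, and its ectodomain can be shed by ADAM10.

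The groups were Atg7F/F SM22α-Cre+ and Atg7+/+ SM22α-Cre+ cells, the strain of both being labelled C57LB/6. Both genotypes carried Cre, so they differ in the floxed Atg7 allele; the SM22α promoter drives Cre in smooth muscle, and the labels do not say which part of Atg7 is floxed. Cells were grown with 10% FBS and used at passages 4 to 10, with no age or sex of the animals in the labels. Each genotype had 2 biological replicates. The extracts of one replicate number were hybridised together on 2 two-colour Agilent arrays with the dyes exchanged, so each of the 4 extracts was read once in Cy3 and once in Cy5. The dye swap is technical and n is 2. The labels do not say whether replicates came from separate animals, so p-values measure only the spread between these samples.

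In each channel 43.3% to 45.5% of spots were well above background and 0 were saturated. Ratios throughout are log2 of Atg7F/F over Atg7+/+. For Atg7, the E1-like enzyme of autophagy, the ratio was -1.26 and -1.09 on the arrays of replicate 1 and -0.96 and -1.57 on those of replicate 2, a mean of -1.22 ± 0.07 (SD, n = 2); with the scanner software's processed signals it was -2.35. Whether the deletion removes the stretch under that probe is not given in the sources used here. At an adjusted p below 0.05, limma called 0 genes higher and 0 lower (0% of the genes tested), and 369 genes (2.98%) had an unadjusted p below that value. Fitted to single arrays, with replicate number as a random block, limma called 9 genes. A fit to the levels of the 4 extracts, with no replicate block, called 1 gene. No member was among the genes called by either fit. With 2 ratios per gene, a gene that missed the threshold is not shown to be equal between genotypes. Of all genes tested, 10.6% were higher and 9.94% were lower on all 4 arrays. Smooth muscle markers were present, with 11 of 13 tested and Acta2 and Tagln well above background on every array; Myocd was so on 2 arrays for Atg7F/F and 3 for Atg7+/+.

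Each probe is a 60-base oligonucleotide, and those of the 3 factors are shown here because the readout of a gene rests on the short stretch of transcript that its probe pairs with. Sequences are 5′ to 3′ as the scanner files list them, with the files' coordinates on build mm9; the files do not name the strand. For probes that begin far along the transcript only the first 30 bases are given.
Tfeb had a single probe, at chr17:47926621-47926680.
Tfeb A_51_P370082: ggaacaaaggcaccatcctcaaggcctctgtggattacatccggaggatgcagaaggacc
The Tfe3 probes lay at chrX:7342667-7342726, chrX:7345041-7345100 and chrX:7351787-7351846, in that order.
Tfe3 A_52_P461313: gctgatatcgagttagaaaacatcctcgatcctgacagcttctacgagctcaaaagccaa
Tfe3 A_52_P34397: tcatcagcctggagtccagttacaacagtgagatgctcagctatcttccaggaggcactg
Tfe3 A_51_P199671: cttattcttggggaagggaacagattttga
The Mitf probes lay at chr6:97956187-97960443, a span longer than the probe, and chr6:97968386-97968445.
Mitf A_52_P100140: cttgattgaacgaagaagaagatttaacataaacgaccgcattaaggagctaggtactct
Mitf A_51_P364274: agcgtgcagtatctgtgaactgatttctcc
Exons and untranslated regions are not stated, as mm9 gene models were not used here.

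Signals of the members are given as mean spot brightness minus local background, in scanner units, and set against the other genotype only within one probe and one dye. The members were chosen with these values known, so the values are a description and carry no test. Tfeb, a driver of lysosome genes, was dim. In Cy3 its probe read 28.3 in Atg7+/+ and 24.2 in Atg7F/F of replicate 1, and 24.2 and 21.8 in replicate 2. In Cy5 the same pairs read 19.7 and 12.9, then 22.6 and 11.9. Atg7F/F was the lower of the pair in all 4 same-dye comparisons, in replicate 1 at 85.5% (Cy3) and 65.4% (Cy5) of Atg7+/+, and in replicate 2 at 90.1% and 52.5%. Over all genes tested the medians of these 4 comparisons, in that order, were 96.0%, 107%, 94.9% and 93.6%. The share of genes lower in all 4 was not counted. Each comparison sets signals of 2 arrays side by side without normalization, and the 2 dyes of a replicate read the same 2 extracts. With no background taken off, Tfeb in Atg7F/F stood at 97.1%, 96.6%, 98.7% and 93.5% of Atg7+/+, so the size of the difference rests on the small net signals, and 3 of the 4 Cy5 readings were not well above background.

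The Tfeb probe was well above background on 2 of 4 arrays for Atg7F/F and 3 of 4 for Atg7+/+, in Cy3 every time and in Cy5 once. After background correction and loess its ratios on the replicate 1 arrays were -0.29 and 0.07, and on the replicate 2 arrays -0.05 and -0.06. The mean was -0.08 ± 0.04 (SD, n = 2), with 1 of the 4 arrays above 0. The offset of 50 added in the background correction pulls dim probes towards 0, and with the scanner software's processed signals the mean was -0.62. With an offset of 0 it was -0.23, and with no background correction -0.07.

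Tfe3, the relative of Tfeb that acts beside it on lysosome genes, gave nearly the same signal in both genotypes on its one bright probe, A_51_P199671. In Cy3 that probe read 167.8 in Atg7+/+ and 174.4 in Atg7F/F of replicate 1, and 170.0 and 165.0 in replicate 2. In Cy5 the pairs read 168.4 and 185.1, then 158.9 and 162.4. In Cy3 and Cy5, Atg7F/F stood at 104% and 110% of Atg7+/+ for replicate 1 and at 97.1% and 102% for replicate 2, so neither genotype was the brighter throughout. Normalized ratios in replicate 1 were -0.18 and 0.30, those in replicate 2 -0.06 and 0.29, with a mean of 0.09 ± 0.04 (SD, n = 2). The sign followed the dye: both arrays with Atg7F/F in Cy5 were below 0 and both with Atg7F/F in Cy3 above it.

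The other Tfe3 probes were dim. A_52_P34397 was well above background on all 4 arrays for Atg7+/+ but on 2 for Atg7F/F, and its mean ratio was -0.02 ± 0.06 (SD, n = 2). A_52_P461313 was well above background on 2 arrays for Atg7F/F and on 0 for Atg7+/+, did not pass the filter, and had a mean of 0.09 ± 0.04. The mean ratios of all 3 Tfe3 probes thus lay within 0.1 log2 units of 0.

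Mitf, the master regulator of melanocytes and a partner of TFE3 in osteoclasts, was near the detection limit. Its probe A_51_P364274 has 10 spots per array, which gives a spread within each channel. In replicate 1 the mean over spots was 21.8 ± 1.80 in Atg7+/+ and 19.7 ± 2.40 in Atg7F/F in Cy3, and 20.2 ± 4.03 and 22.0 ± 4.18 in Cy5 (SD over 10 spots). In replicate 2 it was 20.9 ± 3.12 and 16.2 ± 1.95 in Cy3, and 18.6 ± 5.37 and 11.4 ± 2.91 in Cy5. The mean of Atg7F/F was the lower in both dyes of replicate 2 and in Cy3 of replicate 1, and the spots of the genotypes overlapped in both dyes of both replicates. Spots of one array share a single extract and are not replicates.

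Of the 10 Mitf spots, 8 and 10 were well above background in Atg7F/F of replicate 1, and 3 and 0 in that of replicate 2, against 8 to 10 in every Atg7+/+ channel. The probe therefore passed the filter through Atg7+/+ alone. Ratios in replicate 1 were 0.01 and -0.04, those in replicate 2 -0.03 and -0.11, with a mean of -0.04 ± 0.04 (SD, n = 2), and the processed signals gave -0.46. The second Mitf probe, A_52_P100140, was not well above background in any channel, and had a mean ratio of 0.00.

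**Figure D1:**
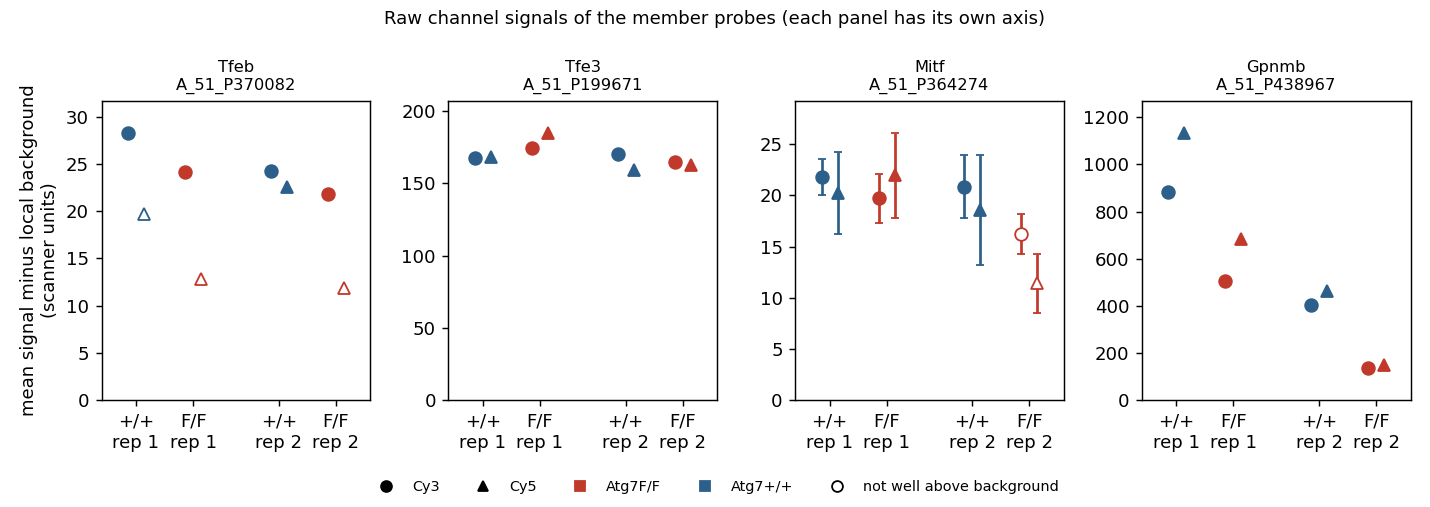
Mean signal minus local background, in scanner units, for 1 probe of each gene; each panel has its own axis from 0. Columns are the 4 extracts, circles are Cy3, triangles are Cy5, open symbols mark channels in which most spots were not well above background, and bars for Mitf are the SD over 10 spots. Gpnmb is lower in Atg7F/F within each replicate and lower in replicate 2 than in replicate 1, while Tfe3 lies between 158.9 and 185.1 in every channel.

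Gpnmb was lower in Atg7F/F in both replicates and both dyes. Its bright probe, A_51_P438967, read 882.2 in Atg7+/+ and 504.4 in Atg7F/F of replicate 1 in Cy3, and 403.3 and 134.8 in replicate 2. In Cy5 the pairs read 1135 and 684.1, then 462.3 and 149.7. Atg7F/F of replicate 1 stood at 57.2% (Cy3) and 60.3% (Cy5) of its Atg7+/+ partner, and Atg7F/F of replicate 2 at 33.4% and 32.4%, so the dyes gave close values and the replicates differed. All 8 channels were well above background.

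On the 2 arrays of replicate 1 the normalized Gpnmb ratio was -0.78 and -0.69, and on those of replicate 2 -0.91 and -1.16. Their mean was -0.88 ± 0.21 (SD, n = 2), 1.85-fold lower in Atg7F/F, and below 0 on 4 of 4 arrays. Among the 12363 genes tested, 22 (0.178%), Gpnmb included, had a mean ratio as low or lower. As Gpnmb was chosen on this contrast, the rank is a description. With the processed signals the mean was -1.17, and with median centring in place of loess it was -0.84, below 0 on all 4 arrays in both. Among the tested members this was the 1 gene with a single sign on all 4 arrays; 9.94% of all genes were lower on all 4, and since the members were chosen on this contrast nothing is read from that count.

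The second Gpnmb probe, A_52_P417819, did not show this difference and gave no signal above the negative controls. It was not well above background in any of the 8 channels, and its net signal ran from -2.35 to 11.2. Its brightness before background was taken off was below the highest of the 153 negative-control spots in every channel. Its mean ratio was 0.03 ± 0.04 (SD, n = 2).

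**Figure D2:**
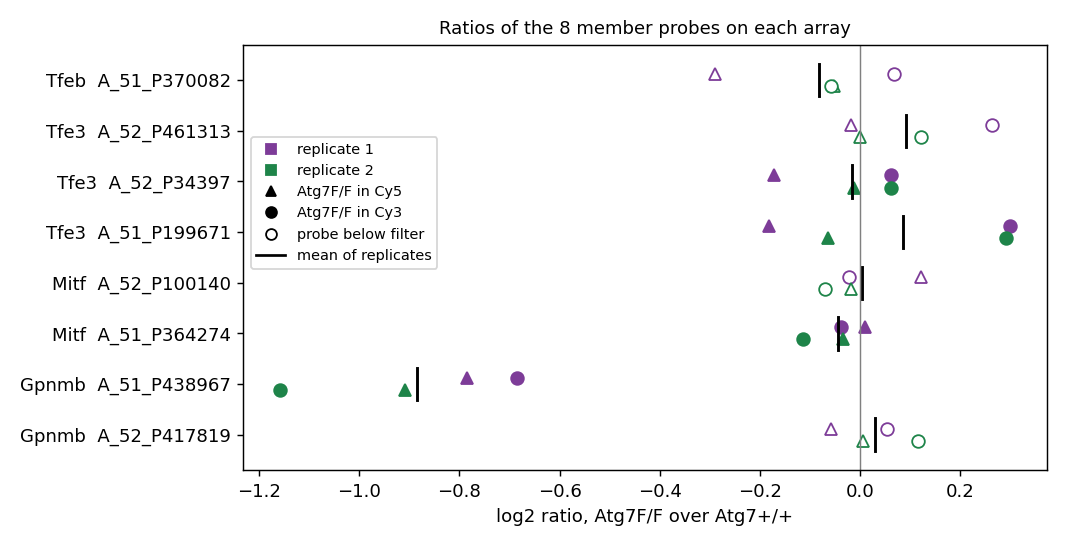
Log2 ratio of Atg7F/F over Atg7+/+ for the 8 member probes, 1 symbol per array. Colours are the 2 replicates, triangles and circles the dye orientation, open symbols probes below the filter, and the black bar the mean of the replicates. The 4 values of Gpnmb A_51_P438967 lie between -1.16 and -0.69, apart from those of the other 7 probes, and the 3 Tfe3 probes separate by dye orientation.

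Gpnmb also differed between replicates of the same genotype. Its normalized log2 level was 10.03 in Atg7+/+ and 9.29 in Atg7F/F of replicate 1, then 8.96 and 7.93 in replicate 2. The order was therefore by replicate first, and the levels of the genotypes overlapped: Atg7F/F of replicate 1 lay above Atg7+/+ of replicate 2. Replicate 2 was lower than replicate 1 by a difference of -1.07 in Atg7+/+ and -1.37 in Atg7F/F. Both extracts of a replicate number were read on the same 2 arrays, with 1 Gpnmb spot of this probe on each. A difference between replicates and one between pairs of arrays therefore cannot be told apart. Of the genes tested, Gpnmb included, 1.26% had Atg7+/+ replicates at least as far apart and 0.631% had Atg7F/F replicates at least as far apart. At least 2-fold lower levels in replicate 2 in both genotypes were found for 11 genes (0.0890%), Gpnmb included. The levels of the factors varied less: over the 4 extracts the range was 0.14 for Tfe3 (A_51_P199671), 0.10 for Mitf (A_51_P364274) and 0.11 for Tfeb, the dim ones being compressed by the offset.

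Over the 4 extracts, the genes whose centred log2 levels lay nearest to those of Gpnmb were Mapkapk3, Perp, Hist1h4i, Ppm1l and F3. Their root mean square differences from Gpnmb were 0.0924, 0.131, 0.205, 0.225 and 0.251 log2 units, against a median of 0.767 over all genes. Mapkapk3, a kinase downstream of p38, had ratios of -0.77 and -0.78 in the replicates, and Perp, a membrane protein of the p53 response, had -0.60 and -0.77. F3, which encodes tissue factor, had -0.35 and -0.44. These likenesses rest on 4 points that share slide and extracts, and are a description.

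**Figure D3:**
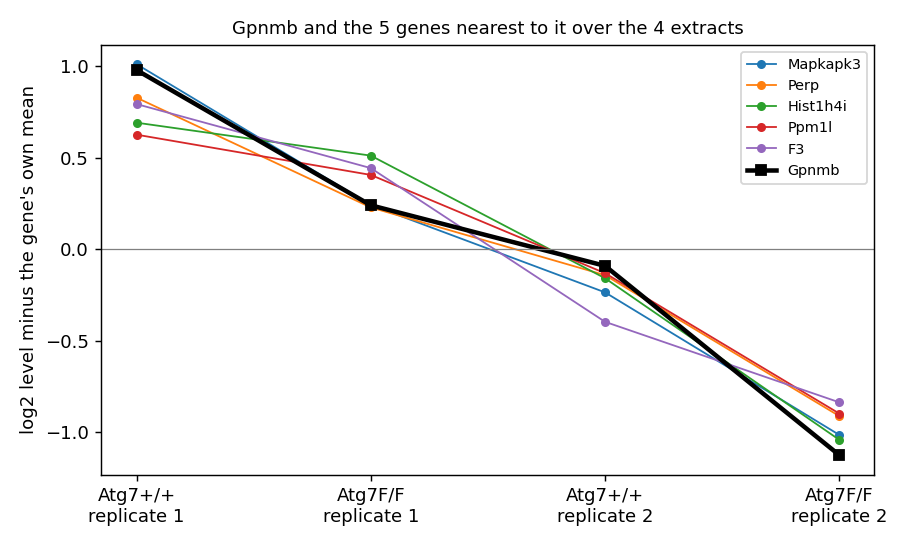
Normalized log2 level minus the gene's own mean over the 4 extracts, for Gpnmb (black squares) and the 5 genes nearest to it; lines only join the points of a gene. All 6 genes are highest in Atg7+/+ of replicate 1 and lowest in Atg7F/F of replicate 2.

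GPNMB is expressed by macrophages, melanocytes and osteoclasts, so their markers were read in the same extracts. Of 18 macrophage markers 6 were tested: Cd68, Csf1r, Lyz2, Cd14, C1qb and Fcer1g. Tyrobp, C1qa and C1qc were well above background on 2 or 3 arrays per genotype, and the other 9, among them Adgre1, Ptprc, Itgam, Fcgr1, Aif1, Mrc1, Cx3cr1 and Cd163, on 0. Cd68, a lysosomal membrane protein of macrophages and other phagocytic cells, was lower on all 4 arrays, with a ratio of -0.37 ± 0.09 (SD, n = 2). Its log2 level was 7.56 in Atg7+/+ and 7.13 in Atg7F/F of replicate 1, and 7.12 and 6.82 in replicate 2. Cd14 was also lower on all 4 arrays, at -0.09 ± 0.07, and Csf1r higher on all 4, at 0.16 ± 0.10. C1qb and Fcer1g had mixed signs over the arrays, at 0.06 ± 0.03 and -0.02 ± 0.02. Lyz2, the lysozyme gene of myeloid cells, had opposite signs in the replicates, -0.50 and 0.58. The summed linear level of the 6 markers was 2149 and 4744 in Atg7F/F (replicates 1 and 2) and 2769 and 3417 in Atg7+/+; most of it was Lyz2, and the other 5 summed to 748.9 and 759.8 in Atg7F/F and 789.6 and 760.3 in Atg7+/+. The part of macrophages in the Gpnmb difference was not tested.

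Of 9 melanocyte markers 3 were tested and Tyr, Tyrp1 and Dct were not well above background on any array, with summed levels of 494.7 and 405.1 in Atg7F/F and 420.6 and 490.3 in Atg7+/+. Of 7 osteoclast markers 3 were tested, summing to 978.2 and 1103 in Atg7F/F and 1277 and 1028 in Atg7+/+, and Calcr, Dcstamp and Ocstamp were not well above background.

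Endothelial markers lay lower in Atg7F/F, although limma called 0 of them and 4 had an unadjusted p below 0.05, against 2.98% of all genes. Of 12 tested, 10 (83.3%) were lower on all 4 arrays, against 9.94% of all genes. With median centring in place of loess 9 were lower on all 4, against 2.14%. Of the 10, Kdr passed the filter through Atg7+/+ alone. The median ratio of the 12 was -0.36 (-0.20 in replicate 1 and -0.51 in replicate 2). Their summed levels were 11130 and 12760 in Atg7F/F and 12600 and 24330 in Atg7+/+. The 8 fibroblast markers had a median of 0.09, at -0.35 in replicate 1 and 0.52 in replicate 2. The part of these cells in the Gpnmb difference was not tested either, and in bulk extracts fewer cells of a type and less RNA per cell cannot be told apart.

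The upstream control of the factors was read from 39 genes of mTORC1, the Rag GTPases, folliculin, calcineurin and 14-3-3 proteins, of which 36 were tested. With limma 0 passed, and 1 had an unadjusted p below 0.05, against 2.98% of all genes. On all 4 arrays 4 (11.1%) were higher and 6 (16.7%) lower, against 10.6% and 9.94% of all genes. Of those 6, 1 passed the filter through Atg7+/+ alone. With median centring in place of loess 0 of the 36 were higher and 2 lower on all 4 arrays, and 2.14% of all genes were lower. The median ratio was -0.01, against 0.00 over all genes. Rragd, a Rag GTPase that brings mTORC1 and the MiT factors to the lysosome and is itself a known MiT target, had the lowest ratio, -0.61 ± 0.15 (SD, n = 2), with array values of -0.49 and -0.52 in replicate 1 and -0.53 and -0.90 in replicate 2. It was below 0 on all 4 arrays with median centring too, and at -1.11 with the processed signals. Flcn, whose product folliculin acts on that GTPase, was at -0.21 ± 0.00 and Rragc at -0.20 ± 0.07. Both were also below 0 on all 4 arrays, but on 2 of 4 with median centring. The other Rragc probe that passed the filter had a mean ratio of -0.01. Fnip1, a folliculin partner, was at 0.05 ± 0.16, the calcium channel gene Mcoln1 at -0.15 ± 0.29, the calcineurin subunit gene Ppp3cb at -0.01 ± 0.23 and the kinase gene Gsk3b at -0.02 ± 0.10. Mtor and Fnip2 were not well above background on any array.

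Lysosome and autophagy genes described as carrying the CLEAR element or as TFEB targets numbered 71, of which 67 were tested. With limma 0 passed at the adjusted threshold, and 13 had an unadjusted p below 0.05, against 2.98% of all genes. On all 4 arrays 29 (43.3%) were lower and 2 (2.99%) higher, against 9.94% and 10.6% of all genes, and the median ratio was -0.16. Within replicate 1 the median was -0.24, and 49 were lower on both arrays (73.1%, against 29.9% of all genes). Within replicate 2 it was -0.11, with 40 lower (59.7%, against 35.0%). The count depended on loess: with each array centred on its median instead, 3 of 67 (4.48%) were lower on all 4 arrays, against 2.14% of all genes, and their median was -0.09, against 0.04 over all genes. Several of these genes are in the lysosome list whose lower level was already known from these arrays, so the count is no independent evidence. Flcn, Rragc and Rragd, which are among the 29, are also in the list of upstream control genes, as are Mcoln1 and Fnip2.

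Among the targets set by role, the hydrolase genes Hexa and Neu1 had ratios of -0.34 ± 0.10 and -0.24 ± 0.24 (SD, n = 2), and the cathepsin genes Ctsb and Ctsd -0.20 ± 0.20 and -0.32 ± 0.18. Lamp1, a lysosomal membrane protein, was at -0.22 ± 0.08 and Atp6v1h, a subunit of the proton pump, at -0.11 ± 0.10. Of these, Hexa, Ctsb, Lamp1 and Atp6v1h were below 0 on all 4 arrays after loess, and on 2 or 3 of them with median centring. Map1lc3b, which encodes LC3B and is lipidated through ATG7, was at -0.15 ± 0.11, and Wipi1, of the early autophagosome, at 0.02 ± 0.06. Sqstm1, the p62 receptor that autophagy degrades, was at 0.35 ± 0.23 and above 0 on all 4 arrays, or on 2 of 4 with median centring. Ppargc1a was not well above background.

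Melanocyte genes linked to MITF were mostly dim. Of 21 listed, 11 were tested. With limma 0 passed and 0 had an unadjusted p below 0.05. On all 4 arrays 1 (9.09%) was lower and 0 were higher, against 9.94% and 10.6% of all genes. The median was 0.04, although the medians within the replicates were -0.04 and -0.08, since different genes stood in the middle. Pmel, a homologue of Gpnmb that builds melanosome fibrils, was at -0.05 ± 0.07 and Mlana at -0.56 ± 0.66 (SD, n = 2). The 13 osteoclast genes gave 8 tested, with 0 passing limma and 0 below an unadjusted p of 0.05, and a median of -0.02. Ctsk, the collagen-degrading cathepsin, was at -0.14 ± 0.37, Acp5 at -0.29 ± 0.43 and Ostm1 at -0.20 ± 0.16; Atp6v0d2 and Mmp9 were not well above background.

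Binding partners and sheddases of GPNMB gave 13 tested of 15, with a median of 0.04. On all 4 arrays 2 (15.4%) were higher and 1 (7.69%) lower, against 10.6% and 9.94% of all genes. The lower gene, Kdr, was at -0.09 ± 0.03 and passed the filter through Atg7+/+ alone. With limma 0 passed and 1, Sdc4, had an unadjusted p below 0.05. Sdc4, a heparan sulphate proteoglycan that GPNMB binds on T cells, was at 0.48 and 0.48 on the arrays of replicate 1 and 1.00 and 1.03 on those of replicate 2, a mean of 0.75 ± 0.38 (SD, n = 2), and stayed above 0 on all 4 with median centring. Cd44, another receptor for GPNMB, had opposite signs in the replicates, 0.42 and -0.48. Itgb1 was at 0.07 ± 0.10, and the sheddase gene Adam10 was not well above background.

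The remaining family member Tfec was at 0.09 ± 0.21 (SD, n = 2), having passed the filter through Atg7F/F alone. Other basic helix-loop-helix leucine zipper genes, of which Tfec is 1, numbered 19, with 16 tested. On all 4 arrays 4 (25%) were higher and 3 (18.8%) lower, against 10.6% and 9.94% of all genes. With median centring in place of loess 0 were higher and 0 lower, and 2.14% of all genes were lower. The median of the list was 0.06, and with limma 0 passed and 0 had an unadjusted p below 0.05. Usf1 and Usf2, which bind the same E-box, were at 0.38 ± 0.39 and -0.08 ± 0.03. Max was at 0.06 ± 0.14 and its partner Myc at 0.06 ± 0.42.

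**Figure D4:**
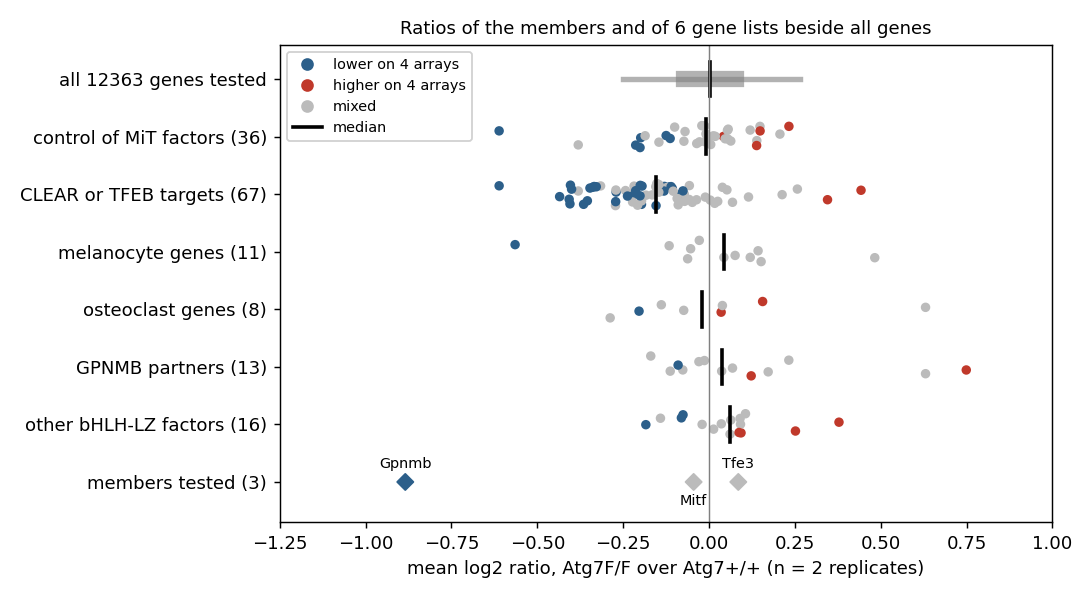
Mean log2 ratio over 2 replicates for each tested gene of 6 lists and for the 3 members tested (diamonds), beside all genes (thin bar 5th to 95th percentile, thick bar 25th to 75th). Black lines are medians, and colours mark genes of one sign on all 4 arrays. Gpnmb at -0.88 lies below every gene of the 6 lists, and the targets centre on -0.16 while all genes centre on 0.00.

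Promoter windows of RefSeq on GRCm38.p6, from 250 bases before to 50 after each start, were searched on both strands. The members had 9 windows: 3 for Tfeb, 2 for Tfe3, 3 for Mitf and 1 for Gpnmb. The palindromic E-box CACGTG was in 0 of the 9, against 7.15% of all 32851 windows. The M-box TCATGTG was in 0 against 3.77%, and its core CATGTG, part of the M-box, in 0 against 14.2%. The AP-1 motif TGACTCA was in 1, that of Gpnmb, against 5.20%. These counts describe the letters of these windows and nothing more.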

How the data were processed

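Two-colour expression arrays of 2 Atg7F/F and 2 Atg7+/+ extracts were analysed from 4 scanner files, with the genotype of each channel taken from the labels. The authors deposited mean and median-background intensity per spot and channel, not normalized, from version 10.1.1.1 of Agilent's Feature Extraction, which the submitters' processing notes name. Per the file headers, these deposited tables also carry processed intensities, well-above-background marks and the log10 of Cy5 divided by Cy3. The authors' deposited value table holds log2 ratios of the processed signals, Atg7F/F over Atg7+/+, equal within 0.001 for 100% of probes; its column medians were 0.199, -0.0939, 0.0809 and -0.0371. Coordinates are on mm9.

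Intensities were background-corrected with normexp (offset 50), normalized within arrays by loess (controls weighted 0), and tested with limma 3.58.1 (R 4.3.3); levels per extract came from between-array quantile scaling of the average intensity. Ratios of dye-swapped arrays were averaged into 1 replicate. A probe was kept where most of its spots were well above background on all 4 arrays in either genotype's channel, and 35 with non-uniform spots were left out, leaving 17110 probes. The brightest probe stood for each gene. Symbols came from RefSeq accessions for 25263 probes. The 2 ratios per gene were tested against 0 (two-sided, lmFit and eBayes, Benjamini-Hochberg over all 12363 genes, 3.18 degrees of freedom); adjusted p-values are limma's. Each array pairs the extracts of one replicate number, so the replicate block is part of this test; deviations of same-numbered extracts correlated at 0.177 across genes. All arrays lay on 1 slide. The code was tested on simulated data. Figures were drawn with matplotlib.

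The members and lists were chosen with earlier results of these data known. Named genes were the members, Atg7, Tfec, genes set by their role in each list, and the 5 genes nearest to Gpnmb; further genes beyond these are cell type markers. Intervals are SDs over 2 replicates, whose number limits the precision. Sequences of the Gpnmb probes are not reported here.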

Additional observations from a re-analysis of the deposited data

Results flagged for a closer look

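The 3 Tfe3 probes had ratios of opposite sign in the 2 dye orientations: both arrays with Atg7F/F in Cy5 were below 0 and both with Atg7F/F in Cy3 above it. On the dim probes some of these ratios lay very near 0. With Atg7F/F in Cy5, A_52_P461313 was at -0.018 and -0.0014, and A_52_P34397 at -0.17 and -0.012. The mean of the Cy5 orientation minus that of the Cy3 orientation was -0.418 for A_51_P199671, -0.153 for A_52_P34397 and -0.202 for A_52_P461313. The difference between orientations was not tested. It cancels in the mean over a dye swap.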

How the results depend on the processing

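The Gpnmb ratio was below 0 under every alternative run, from -0.735 to -1.03 with a replicate left out and at -1.17 with the scanner software's processed signals and with the deposited value table. The ratios of the factors moved under several settings. For Tfeb the ratio was -0.233 with an offset of 0, -0.622 with processed signals and with the deposited table, and -0.171 and 0.00488 on the arrays with Atg7F/F in Cy5 and in Cy3. Mitf was at -0.144 with an offset of 0 and at -0.462 with processed signals and with the deposited table. Tfe3 was at 0.128 with an offset of 0, and at -0.124 and 0.294 on the arrays with Atg7F/F in Cy5 and in Cy3. The cause of these shifts was not tested.

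Limma called 9 genes with 4 arrays and the replicate pair as a random block, and 1 gene, Gsta1, with no replicate block; none of these was a member or a listed gene. Without the block the Gpnmb ratio stayed at -0.885, because leaving out the block does not change the mean ratio of a gene. With either replicate left out no residual degrees of freedom remained, so the test could not be fitted. The count of target genes lower on all 4 arrays was 3 with median centring, where 2.14% of all genes were lower. On both arrays of a single replicate, 49 were lower in replicate 1 and 40 in replicate 2. The shares of all genes lower on those 2 arrays were 29.9% and 35.0%. This alternative was chosen after seeing the data. The median of the control genes was 0.0514 with median centring and -0.0656 to 0.00927 with a replicate left out. The melanocyte median was 0.0796 with an offset of 0, 0.103 with processed signals and with the deposited table, 0.0156 without the filter, and -0.0814 to -0.043 with a replicate left out. The osteoclast median was -0.0337 without background correction, -0.0594 with processed signals and with the deposited table, -0.00467 with median centring, 0.0225 without the filter, 0.0284 over every probe, and 0.0192 to 0.0366 with a replicate left out. The median of the other helix-loop-helix genes was -0.0475 to 0.046 with a replicate left out.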
